A study of Mus musculus with 2 samples.

Results

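Interferon-stimulated genes were examined in dermal cells of the Pdgfra lineage from untreated mouse skin (UT) and from skin with imiquimod-induced psoriasiform inflammation (IMQ). The list held 34 genes, chosen by symbol and all found among the 31053 genes of the files. Of these, 23 are usually described as type I members, driven through a complex that holds STAT2 and IRF9, and 11 as interferon-gamma-type members, driven in part through IRF1. Many genes of either class respond to both interferons. The expression data were single-cell RNA sequencing (scRNA-seq) counts from 1 UT library and 1 IMQ library, made with a Chromium 3′ kit, in which every captured transcript is tagged with the barcode of its droplet and counted once through its unique molecular identifier (UMI). Both libraries came from the dermis of 8-week-old PdgfraDreER-tdTomato mice on the C57BL/6 strain, in which tamoxifen switches on tdTomato in cells that express Pdgfra, a fibroblast marker. Dermal cells that were live, CD45-negative and tdTomato-positive were sorted from untreated skin or after 7 days of imiquimod, an agonist of Toll-like receptors that is applied as a cream. The label marks every cell that expressed Pdgfra when tamoxifen was given, and its descendants. How many mice went into each library was not given in the sources used here.

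Interferons are secreted proteins that bind receptors on the cell surface and activate JAK kinases and STAT transcription factors. Type I interferon leads to a complex with STAT2 and IRF9 that binds interferon-stimulated response elements (ISRE). Interferon-gamma leads to binding at gamma-activated sites (GAS), and to IRF1, which again binds ISRE-like sequences. The genes switched on include antiviral effectors, membrane proteins that block virus entry or release, GTPases that attack the vacuoles of intracellular pathogens, and the immunoproteasome that shapes peptides for class I presentation. Interferon-stimulated genes are a known part of psoriatic inflammation, and fibroblasts carry the receptors for both kinds of interferon.

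Letters that match the cores of these elements were found in the promoters of many members. RefSeq promoter sequences of GRCm38.p6, from 250 bases before to 50 bases after the start site, were held for 27 of the 34 members, the others being Usp18, Rtp4, Zbp1, Parp14, Ifi27, Ifi27l2a and Iigp1. An ISRE core written as GAAANNGAAA, or its reverse complement TTTCNNTTTC, was found in 13 of the 27 members (48.1%) and in 1079 of 27025 genes of the table (3.99%). A GAS core written as TTCNNNGAA, which reads the same on both strands, was found in 8 of 27 members (29.6%) and in 9.55% of all genes. In Igtp the GAS core lies just upstream of the ISRE core, so its windows overlap while the cores do not. The windows below belong to members whose values carry the results that follow. Capitals mark the motif and each sequence is written along the strand of its gene, with the window in GRCm38.p6.
Igtp, ISRE, chr11:58199514-58199539, plus strand: taggaactGAAACTGAAAgctgttcg
Igtp, GAS, chr11:58199503-58199527, plus strand: ctagccatTTCTAGGAActgaaact
Irgm1, ISRE, chr11:48871427-48871452, minus strand: aagaaataGAAACCGAAActgattct
Gbp2, ISRE, chr3:142620596-142620621, plus strand: tcttttagTTTCACTTTCactgtctt
Ifitm2, ISRE, chr7:140955990-140956015, minus strand: accaacagGAAAAGGAAAttgctaga
Ifit1, ISRE, chr19:34640777-34640802, plus strand: ggcttcagTTTCACTTTCcagtctca
Irf1, GAS, chr11:53769916-53769940, plus strand: agcctgatTTCCCCGAAatgatgag
Psmb8, GAS, chr17:34198090-34198114, plus strand: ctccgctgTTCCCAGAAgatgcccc
The 6 GTPase members with a promoter sequence held the ISRE core in 5 cases, namely Igtp, Irgm1, Gbp2, Gbp3 and Gbp7. The 10 interferon-gamma-type members held it in 5 and the 17 type I members in 8. A match is a description of these letters and not evidence of binding, and a window without a match says only that the letters are not in it.

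Values were computed over barcodes with 200 to 5000 detected genes and at most 5% of UMIs from mitochondrial genes, over barcodes of the same gene numbers above 5%, and over all deposited barcodes. The first set held 1045 UT barcodes with 1104798 UMIs and 571 IMQ barcodes with 460947 UMIs, at medians of 741 and 659 UMIs per barcode. The set above 5% held 304 and 854 barcodes, and all deposited barcodes numbered 1415 and 5047, of which 3621 in IMQ had fewer than 200 genes. The fibroblast label held in the first set, where all 7 fibroblast markers were found in both libraries and made up 100312 and 163887 UMIs per 1000000 UMIs of the library (CPM). Ptprc, which encodes CD45, had 1 UMI in UT and 0 in IMQ. Keratinocyte markers stood at 1541 CPM in UT and 13.0 in IMQ, and myeloid and class II markers at 1598 and 199.6 CPM. Gm42418, a gene that often collects ribosomal RNA reads, took 1.38% of UT and 14.6% of IMQ UMIs, and Malat1 took 1.45% and 0.436%. The median gene with at least 10 UMIs had a log2 ratio (IMQ over UT) of -0.61, so ratios are also given relative to that gene where the direction depends on it. The part of these differences in the results was not tested. The libraries shared 1 barcode sequence. With 1 library per group no test was possible, and every interval given is a 95% interval that covers counting error only, without variation between mice.

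**Figure D1:**
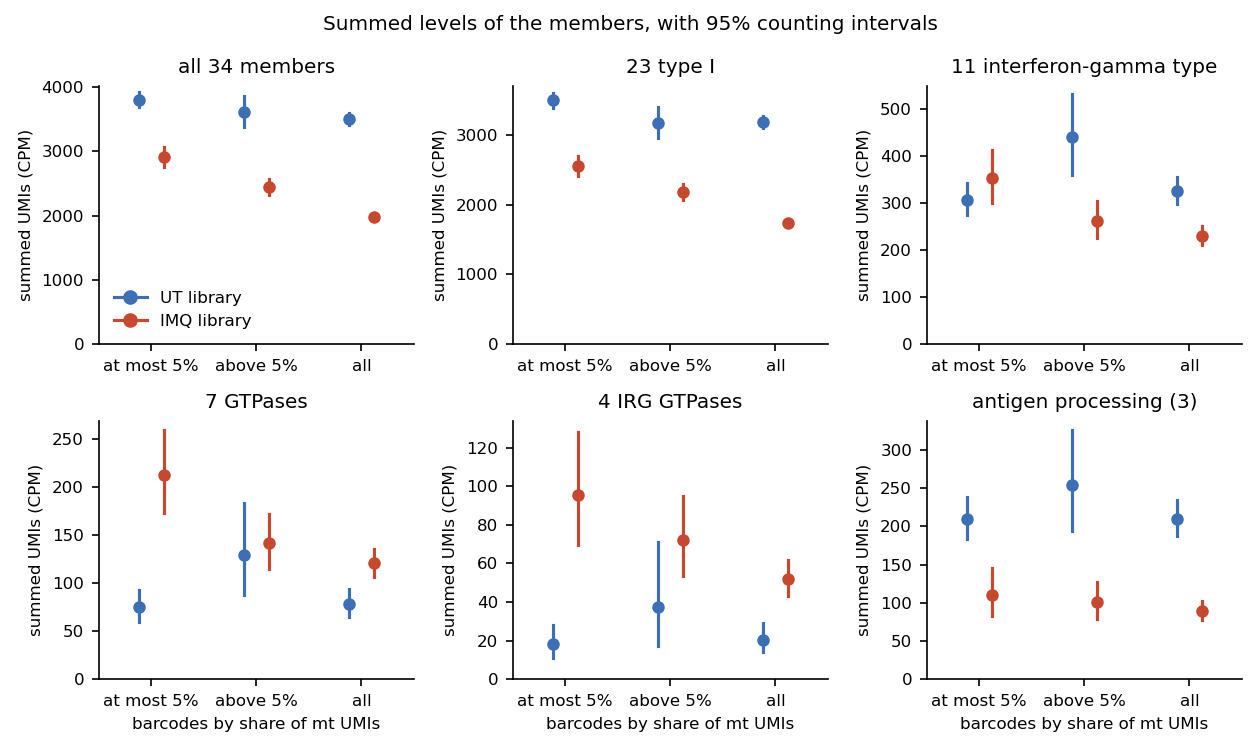
Summed level of the members (CPM, linear axes from 0) in the UT and IMQ libraries, for barcodes with at most 5% mitochondrial UMIs, those above 5% and all deposited barcodes, with 95% Poisson intervals. The sums of all and of type I members lie lower in IMQ in each set on this scale, though not relative to the median gene, while the 4 immunity-related GTPases (IRG) lie at 95.5 against 18.1 CPM in the first set.

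Most UMIs of the list came from a few abundant genes, and the sum was lower in IMQ as a share of all UMIs. In barcodes with at most 5% mitochondrial UMIs the 34 members together had 4198 UMIs in UT (3799.8 CPM, 3686 to 3917) and 1339 in IMQ (2905 CPM, 2751 to 3065). On the log2 scale IMQ over UT stood at -0.39 (-0.48 to -0.30). The sign of this difference turned with the scaling, since relative to the median gene the sum was 0.22 higher, with edgeR's TMM factors 0.10 higher and with median-of-ratios factors 0.09 higher. Ifitm2 and Ifitm3 alone gave 77.0% of the member UMIs in UT and 72.0% in IMQ, so the summed score is largely a score of these genes.

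The type I and interferon-gamma-type members differed in their ratios. The 23 type I members had 3858 UMIs in UT (3492 CPM) and 1176 in IMQ (2551 CPM), for a log2 ratio of -0.45 (-0.55 to -0.36). Under TMM and relative to the median gene the type I ratio was 0.03 and 0.15. The 11 interferon-gamma-type members had 340 UMIs in UT (308 CPM) and 163 in IMQ (354 CPM), for a log2 ratio of 0.20 whose interval, -0.08 to 0.47, covered 0. Without barcodes over 5000 UMIs this ratio was -0.22 (-0.54 to 0.08). Within that class the GTPases and the antigen-processing genes went in opposite directions, which the sum hides. The 7 GTPases were at 75.1 CPM in UT and 213 CPM in IMQ, and the 3 antigen-processing genes at 209 and 111 CPM.

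**Figure D2:**
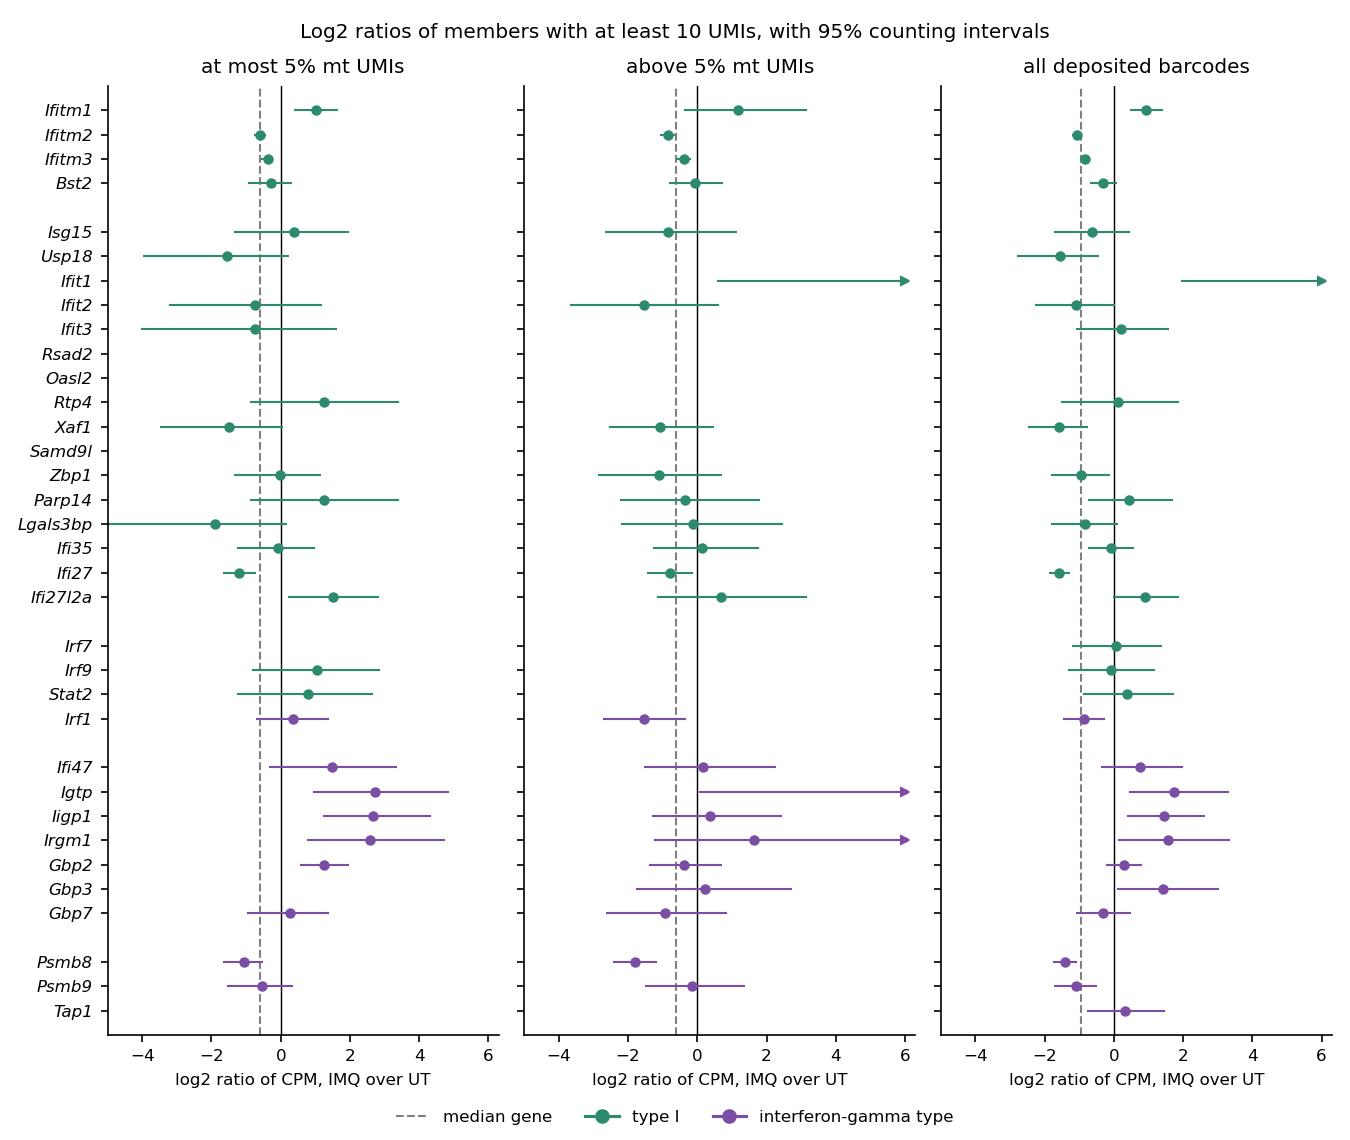
Log2 ratio of CPM, IMQ over UT, for each member with at least 10 UMIs over both libraries in each barcode set, with 95% exact counting intervals. The dashed line is the ratio of the median gene, arrows mark intervals that run past the axis, as the lower end of Lgals3bp also does, and 4 GTPases lie wholly above 0 in the first panel.

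The GTPases held the highest ratios of the list. They belong to a pair of families that interferon-gamma induces strongly in mice. The immunity-related GTPases (Igtp, Iigp1, Irgm1 and Ifi47) act at the vacuoles of intracellular microbes, and the guanylate-binding proteins (Gbp2, Gbp3 and Gbp7) gather there with them. Summed over the 7 genes, the barcodes with at most 5% mitochondrial UMIs held 83 UMIs in UT (75.1 CPM, 59.8 to 93.1) and 98 in IMQ (213 CPM, 173 to 259). This put IMQ higher by a log2 ratio of 1.50 (1.06 to 1.94), and of 2.11 relative to the median gene. All 6 of the 7 genes that reached 10 UMIs were higher in IMQ, with a median log2 ratio of 1.81 (1 CPM added) beside -0.61 over the 8129 genes with as many UMIs.

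The immunity-related GTPases made the larger difference. Together they had 20 UMIs in UT (18.1 CPM, 11.1 to 28.0) and 44 in IMQ (95.5 CPM, 69.4 to 128), for a log2 ratio of 2.40 (1.61 to 3.24). Iigp1, which coats pathogen vacuoles, had 6 UMIs in 6 UT barcodes (5.43 CPM) and 16 UMIs in 13 IMQ barcodes (34.7 CPM), a log2 ratio of 2.68 (1.25 to 4.32). Igtp, also called Irgm3, had 4 UMIs in UT (3.62 CPM) and 11 in IMQ (23.9 CPM), spread over 3 and 10 barcodes, with a ratio of 2.72 (0.97 to 4.83). Irgm1, a regulator that keeps the effector GTPases inactive on the cell's own membranes, had 4 UMIs in UT and 10 in IMQ (3.62 and 21.7 CPM), a ratio of 2.58 (0.79 to 4.71). These 3 genes were the ones with the highest ratios among all members tested, and their counts in UT were all at or below 6 UMIs. Irgm1 rested on few barcodes, as 4 of its 10 IMQ UMIs came from 1 barcode, and without the leading barcode of each library its ratio was 2.27 (0.05 to 4.90). Ifi47 had 6 UMIs in UT and 7 in IMQ (5.43 and 15.2 CPM), a ratio of 1.48 with an interval from -0.31 to 3.33. Igtp overlaps Irgm2 and Ifi47 overlaps Olfr56 on the same strand, so reads could have been split between them.

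The guanylate-binding proteins were higher in IMQ by less. Their sum was 63 UMIs in UT (57.0 CPM) and 54 in IMQ (117 CPM), for a log2 ratio of 1.04 (0.49 to 1.59). Gbp2 (ENSMUSG00000028270, chr3:142620602-142638008) had 38 UMIs in each library, which at these depths is 34.4 CPM in UT and 82.4 CPM in IMQ and a ratio of 1.26 (0.57 to 1.95). A single IMQ barcode of 10782 UMIs, with 948 UMIs of fibroblast markers, held 13 of the 38, and without the leading barcodes the ratio was 0.81 (0.01 to 1.59). Gbp7 had 22 UMIs in UT and 11 in IMQ (19.9 and 23.9 CPM), a difference within counting error, and Gbp3 had 3 and 5 UMIs, too few for the comparison. The sum of the 7 GTPases without Gbp2 had a log2 ratio of 1.68 (1.09 to 2.27).

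How far the GTPase values rest on a few deep barcodes was measured directly. The 5 IMQ barcodes with over 5000 UMIs in this set held 7.97% of its UMIs but 27 of the 98 GTPase UMIs, 17 of them in the barcode of 10782 UMIs. The other 4 of these barcodes had only 5 to 23 UMIs of the 7 fibroblast markers. Without barcodes over 5000 UMIs in either library the GTPase ratio was 1.01 (0.53 to 1.49), and that of the immunity-related GTPases was 2.02 (1.14 to 2.94), from 18 UT and 32 IMQ UMIs. For the guanylate-binding proteins it was 0.52 and within counting error (-0.10 to 1.12), from 62 and 39 UMIs.

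**Figure D3:**
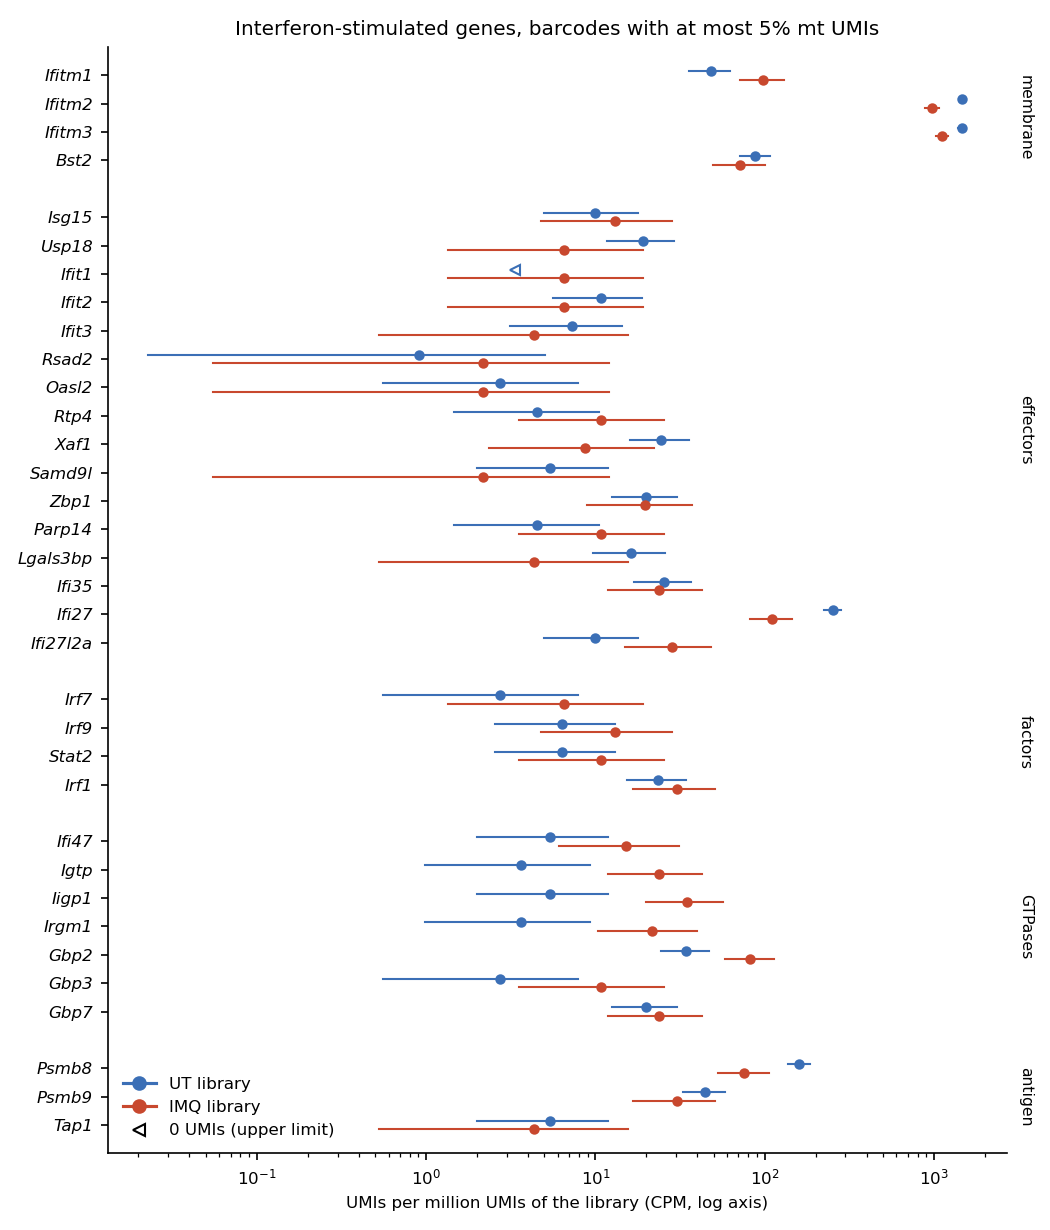
Level of each of the 34 members in the UT and IMQ libraries (CPM, log axis) over barcodes with at most 5% mitochondrial UMIs, with 95% Poisson intervals and genes grouped by role. An open triangle marks the upper limit for 0 UMIs. Ifitm2 and Ifitm3 lie near 1000 CPM and lower in IMQ, though not relative to the median gene, while Igtp, Iigp1 and Irgm1 are each at or below 5.43 CPM in UT and at or above 21.7 CPM in IMQ.

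The membrane proteins behaved differently among themselves. The Ifitm genes encode small proteins that hinder fusion of viruses with cell membranes, and Ifitm2 and Ifitm3 are present in many fibroblasts without interferon. Ifitm2 had 1626 UMIs in UT (1472 CPM) and 449 in IMQ (974 CPM), with a log2 ratio of -0.60 (-0.75 to -0.44). Ifitm3 had 1608 UMIs in UT (1455 CPM) and 515 in IMQ (1117 CPM), with a ratio of -0.38 (-0.53 to -0.24). Relative to the median gene these ratios were 0.01 and 0.22, so Ifitm2 lay at the ratio of the median gene. The last 500 bases of Ifitm2 transcripts share 38.3% of their 60-base words with Ifitm3 and several pseudogenes, so Ifitm2 counts may be incomplete in both libraries alike.

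Ifitm1 went the other way, but on few barcodes. It had 53 UMIs in 25 UT barcodes (48.0 CPM) and 45 UMIs in 14 IMQ barcodes (97.6 CPM), a log2 ratio of 1.03 (0.42 to 1.63). The 5 IMQ barcodes over 5000 UMIs held 28 of these 45 UMIs, all in the 4 that had at most 23 fibroblast-marker UMIs, and 1 of them held 16. Without barcodes over 5000 UMIs the ratio of Ifitm1 (1 CPM added) was -0.05, so the higher IMQ value did not hold. Bst2, or tetherin, which keeps budding viruses on the cell surface, had 97 UMIs in UT and 33 in IMQ (87.8 and 71.6 CPM), and its ratio of -0.29 was within counting error (-0.91 to 0.29).

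The classical type I effectors gave no common direction. Of the 16 effectors, 12 reached 10 UMIs, 4 of these had a ratio above 0 and 8 below, and the median log2 ratio was -0.35 (1 CPM added). Ifi27, which encodes a mitochondrial membrane protein, had the most UMIs of the group, with 279 in UT (253 CPM) and 51 in IMQ (111 CPM). Its ratio was -1.19 (-1.65 to -0.76), and -0.58 relative to the median gene. Its neighbour on chromosome 12, Ifi27l2a, was the only other effector whose interval left 0 aside, and it lay in the opposite direction, with 11 UMIs in UT (9.96 CPM), 13 in IMQ (28.2 CPM) and a ratio of 1.50 (0.23 to 2.80). Without the leading barcode of each library that interval reached -0.15.

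Several genes that define a type I response had few UMIs in these cells, and their intervals were wide. Isg15, a ubiquitin-like modifier, had 11 UMIs in UT and 6 in IMQ (9.96 and 13.0 CPM). Usp18, which removes Isg15 from proteins and damps the type I receptor, had 21 and 3 UMIs (19.0 and 6.51 CPM), with a ratio of -1.55 (-3.93 to 0.20). Xaf1 had 27 and 4 UMIs and Lgals3bp 18 and 2, with ratios of -1.49 and -1.91 whose intervals also reached past 0. These 3 genes were lower in IMQ by more than 2-fold, but not beyond counting error. Ifit2 and Ifit3, which bind viral RNA or its partners, had 12 and 8 UMIs in UT and 3 and 2 in IMQ. Zbp1, a sensor of Z-form nucleic acids, had 22 and 9 UMIs, and Ifi35 had 28 and 11, which is 19.9 against 19.5 CPM and 25.3 against 23.9 CPM. Rtp4 and Parp14 had 5 UMIs in each library. Below 10 UMIs were Ifit1 with 0 in UT and 3 in IMQ, Rsad2 with 1 and 1, Oasl2 with 3 and 1, and Samd9l with 6 and 1. The 15 effectors other than Ifi27 summed to 161 CPM in UT (138 to 187) and 150 CPM in IMQ (116 to 189), for a log2 ratio of -0.11 (-0.53 to 0.30), which turned to 0.50 (0.08 to 0.91) relative to the median gene.

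The transcription factors of the list were rare, and each difference in CPM was within counting error. Irf1 had 26 UMIs in UT (23.5 CPM) and 14 in IMQ (30.4 CPM), with a ratio of 0.37 (-0.68 to 1.36), and 10 of its UT UMIs were in 1 barcode. Irf9 and Stat2, which act in the type I complex, had 7 UMIs each in UT and 6 and 5 in IMQ. Irf7, which amplifies type I interferon production, had 3 UMIs in each library. Summed, the 4 factors were at 38.9 CPM in UT and 60.7 CPM in IMQ, and the interval of the log2 ratio, -0.10 to 1.36, covered 0, while relative to the median gene the ratio was 1.25 (0.51 to 1.97).

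The summed antigen-processing members were lower in IMQ in CPM, mostly through Psmb8. Psmb8, a catalytic subunit of the immunoproteasome (ENSMUSG00000024338, chr17:34197721-34201454), had 176 UMIs in 143 UT barcodes (159 CPM) and 35 UMIs in 27 IMQ barcodes (75.9 CPM). Its log2 ratio was -1.07 (-1.64 to -0.54), and -0.46 (-1.03 to 0.07) relative to the median gene. Psmb9, the subunit encoded beside it, had 49 and 14 UMIs (44.4 and 30.4 CPM), with a ratio of -0.55 that was within counting error (-1.52 to 0.33). Tap1, a subunit of the transporter that carries peptides into the endoplasmic reticulum, had 6 and 2 UMIs. Psmb9 and Tap1 overlap on opposite strands, and whether counting used strand was not stated. The 3 genes together had a ratio of -0.92 (-1.39 to -0.48), and of -0.31 (-0.78 to 0.13) relative to the median gene. In CPM it was -0.87 (-1.34 to -0.43) without barcodes that held at least 3 class II UMIs or any Ptprc UMI. Over barcodes with at least 500 genes, of which IMQ had 37, the ratio was 0.53 (-0.20 to 1.20).

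In all, 27 of the 34 members reached 10 UMIs in barcodes with at most 5% mitochondrial UMIs. The others were Ifit1, Rsad2, Oasl2, Samd9l, Irf7, Gbp3 and Tap1. At least 2-fold higher in IMQ (1 CPM added) were 9 of the 27, beside 3.73% of the 8129 genes tested in the same way. They were Ifitm1, Rtp4, Parp14, Ifi27l2a, Ifi47, Igtp, Iigp1, Irgm1 and Gbp2, and of these the intervals of Rtp4, Parp14 and Ifi47 covered 0. At least 2-fold lower were 5 of the 27, Usp18, Xaf1, Lgals3bp, Ifi27 and Psmb8, beside 32% of all genes. Relative to the median gene, 11 of 27 were higher beside 11.9%, and only Lgals3bp was lower beside 15.4%. Without barcodes over 5000 UMIs, 4 of 22 members were at least 2-fold higher, beside 3.75% of genes.

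**Figure D4:**
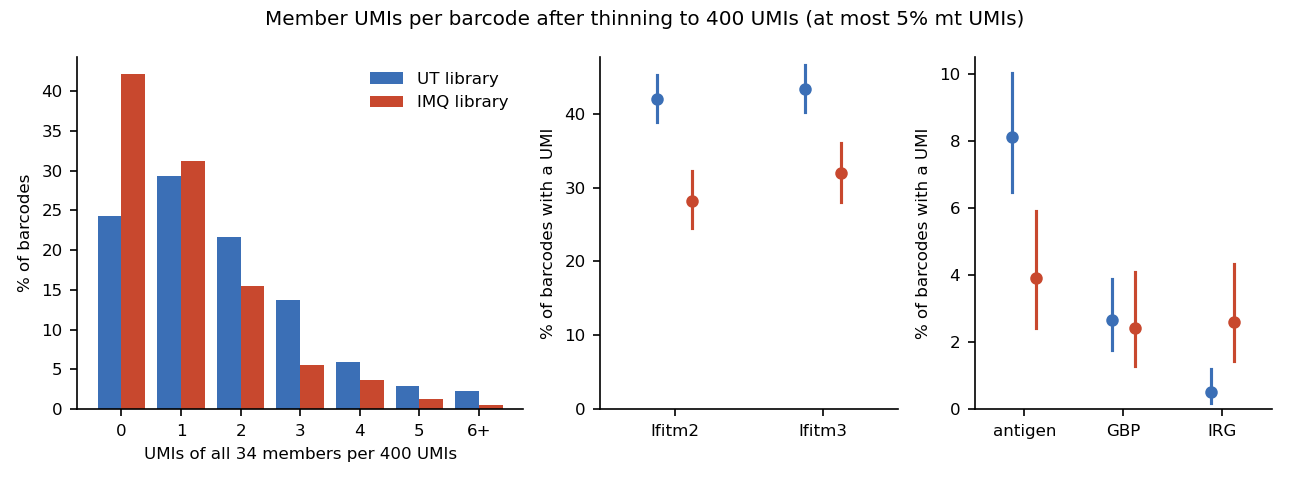
Left, percent of barcodes with 0 to 6 or more UMIs of the 34 members after each barcode was thinned to 400 UMIs (972 UT and 538 IMQ barcodes with at most 5% mitochondrial UMIs); middle and right, percent of these barcodes with at least 1 UMI of Ifitm2, Ifitm3, the antigen-processing genes, the guanylate-binding proteins (GBP) and the immunity-related GTPases (IRG), with 95% Clopper-Pearson intervals. The IRG share is 0.514% in UT and 2.60% in IMQ, while the shares for Ifitm2, Ifitm3 and antigen processing are lower in IMQ. Thinning makes total UMIs equal, a scale on which the median gene also lies lower in IMQ.

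Counted per barcode, the members were widespread and the GTPases rare. Each barcode was thinned at random to 400 UMIs so that depth was equal, which left out 73 UT and 33 IMQ barcodes with fewer. At least 1 member UMI was then found in 736 of 972 UT barcodes (75.7%, 72.9 to 78.4) and in 311 of 538 IMQ barcodes (57.8%, 53.5 to 62.0), and before thinning in 89.8% and 74.1%. Ifitm3 was found in 43.4% of UT and 32.0% of IMQ barcodes, and Ifitm2 in 42.1% and 28.3%. An antigen-processing gene was found in 8.13% (6.49 to 10.0) of UT and 3.90% (2.43 to 5.91) of IMQ barcodes. Equal totals keep the scale of shares of all UMIs, on which the median gene had a log2 ratio of -0.61. Relative to that gene, the log2 ratios of all members, Ifitm3 and Ifitm2 were 0.22, 0.22 and 0.01. For the antigen-processing genes the value was -0.31 (-0.78 to 0.13). Shares of barcodes were not computed on that scale. An immunity-related GTPase was found in 5 UT barcodes (0.514%, 0.167 to 1.20) and 14 IMQ barcodes (2.60%, 1.43 to 4.33), and before thinning in 1.72% and 4.90%. For the guanylate-binding proteins the shares were 2.67% and 2.42%, so that family was found in like shares of barcodes although its summed level was higher in IMQ. These genes can be expressed by nearly every cell type, so no barcodes could serve as a measure of free RNA. Before thinning, 2 or more GTPase genes were found in 3 of 1045 UT barcodes and in 14 of 571 IMQ barcodes.

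The GTPase difference was seen in several kinds of fibroblast barcodes. These kinds can share barcodes and are not separate observations, and deep barcodes reach a fixed number of marker UMIs more readily. Barcodes over 5000 UMIs, which held 27 of the 98 GTPase UMIs in IMQ, were not left out here. Barcodes with at least 2 UMIs of fascial fibroblast markers (Pi16, Cd55, Sema3c, Dpp4 and Ly6c1) had 75.9 CPM of GTPases in UT and 291 in IMQ, for a log2 ratio of 1.94 (1.29 to 2.58). The other barcodes had 74.1 and 181 CPM, a ratio of 1.29 (0.66 to 1.93). In barcodes with at least 2 UMIs of reticular markers (Mfap5, Mgp, Clec11a, Mmp3 and Gpx3) the ratio was 1.41 (0.74 to 2.08), from 79.2 and 210.0 CPM. The intervals of these kinds overlap, and whether the kinds differ was not tested. Papillary markers reached 2 UMIs in only 4 IMQ barcodes, which held 23 of the 98 GTPase UMIs, and without papillary barcodes the ratio was 1.23 (0.74 to 1.71). Barcodes with at least 10 UMIs of the nuclear RNA Malat1 held 27 of the 98 GTPase UMIs in IMQ and 8 of the 83 in UT, and in the other barcodes the ratio was 1.05 (0.56 to 1.54). Limiting the set to barcodes with at least 3 UMIs of the 7 fibroblast markers left 1004 UT and 570 IMQ barcodes and a GTPase ratio of 1.44 (1.00 to 1.88). That limit could hardly move the ratio, since it kept 82 UT and all 98 IMQ GTPase UMIs. Deep IMQ barcodes with only 5 to 23 fibroblast-marker UMIs also passed it. Ifitm2 and Ifitm3 together had CPM ratios of -0.21 (-0.39 to -0.04) in the fascial and -0.63 (-0.79 to -0.47) in the reticular kind. The first lies above the ratio of the median gene, which was computed over all barcodes of the set and not within a kind. In barcodes with at least 10 Malat1 UMIs they were higher in IMQ, at 0.86 (0.54 to 1.17), and in those with papillary markers the ratio was 0.36, with an upper bound of 0.70.

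In barcodes above 5% mitochondrial UMIs the GTPase difference in CPM was within counting error, while relative to the median gene it was 0.75 (0.16 to 1.38). The 7 genes had 31 UMIs in UT (129 CPM) and 98 in IMQ (141 CPM), for a log2 ratio of 0.13 (-0.46 to 0.77), and the immunity-related GTPases had 9 and 50 UMIs, a ratio of 0.95 (-0.09 to 2.16). Here 1 IMQ barcode of 14973 UMIs, with 8.84% mitochondrial UMIs, 52 UMIs of endothelial markers and 22 of fibroblast markers, held 21 of the GTPase UMIs and 132 of the 1693 member UMIs. Without it the GTPase ratio was -0.18 (-0.80 to 0.47) and that of the immunity-related GTPases 0.29 (-0.82 to 1.54). The UT value in this set was higher than in the first set, at 129 against 75.1 CPM, with intervals of 87.6 to 183 and 59.8 to 93.1. Among the fascial barcodes of this set the CPM ratio was 0.90 (0.05 to 1.86), and among the others -0.54 (-1.40 to 0.38). Whether the ratio differed between the sets was not tested.

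The more abundant members had the same direction in CPM above 5% as in the first set. Ifitm2 had a log2 ratio of -0.86 (-1.05 to -0.66), Ifitm3 of -0.40 (-0.59 to -0.20), Ifi27 of -0.79 (-1.41 to -0.15) and Psmb8 of -1.80 (-2.41 to -1.19). Relative to the median gene, Ifitm3 was higher at 0.22 (0.02 to 0.42) and Ifitm2 lower at -0.24 (-0.44 to -0.04). On that scale Ifi27 was at -0.17 (-0.79 to 0.47) and Psmb8 at -1.18 (-1.79 to -0.57). Irf1 was at 58.2 CPM in UT, from 14 UMIs, and at 20.2 CPM in IMQ, also from 14 UMIs, with a ratio of -1.53 (-2.71 to -0.35), and 7 of the IMQ UMIs were in 1 barcode. Ifit1 had 0 UMIs in UT and 18 in IMQ, which is at least 2.08-fold higher when UT is set at 3 UMIs, but 7 of the 18 were in the barcode with endothelial markers, and without it the bound was 1.30. Igtp had 0 UMIs in UT and 13 in 11 IMQ barcodes, at least 1.50-fold higher by the same rule and 1.30-fold without that barcode. Irgm1 had 1 and 9 UMIs, and 1 and 5 without it, where the interval ran from -2.33 to 6.39. Of the 24 members with 10 UMIs, 4 were at least 2-fold higher (Ifitm1, Ifit1, Igtp and Irgm1), beside 7.2% of 5247 genes, and 5 were lower (Ifit2, Xaf1, Zbp1, Irf1 and Psmb8), beside 31.4%. Relative to the median gene of this set, 5 were higher beside 16.1%, and Psmb8 alone was lower beside 12.5%. The summed ratios of type I and interferon-gamma-type members were -0.54 (-0.67 to -0.41) and -0.75 (-1.10 to -0.39), and under TMM both were above 0, at 0.25 and 0.04. In this set T cell markers were at 35 UMIs in UT and 0 in IMQ, and 13 UMIs of Ifng, the gene of interferon-gamma, were all in 1 UT barcode.

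Over all deposited barcodes the GTPase sum was again higher in IMQ, and 6 of the 7 genes had a ratio above 0, with Gbp7 at -0.31 (-1.07 to 0.46). Their sum was 119 UMIs in UT (78.1 CPM, 64.7 to 93.4) and 284 in IMQ (120 CPM, 107 to 135), for a log2 ratio of 0.63 (0.31 to 0.95), while the median of 9917 genes was -0.96. Without barcodes over 5000 UMIs, 19 in UT and 7 in IMQ, this ratio was 0.19 and within counting error (-0.14 to 0.53). Igtp had 6 and 31 UMIs, a ratio of 1.74 (0.46 to 3.29). Iigp1 had 10 and 42 UMIs, with 1.44 (0.42 to 2.60), and Irgm1 had 5 and 23, with 1.57 (0.14 to 3.32). Gbp3, which was too rare in the first set, had 6 and 25 UMIs and a ratio of 1.43, with a lower bound of 0.11. In the 3621 IMQ barcodes with fewer than 200 genes the GTPases were at 76.2 CPM (61.1 to 93.8), below the 213 CPM of the IMQ barcodes of the first set.

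Ifit1, a type I effector that binds viral RNA, was found in IMQ alone. It had 0 UMIs over all 1415 UT barcodes and 24 UMIs in 10 of 5047 IMQ barcodes, at least 5.17-fold higher when UT is set at 3 UMIs, and at least 3.69-fold without the barcode with endothelial markers. Its relatives did not share this, as Ifit2 had 18 UMIs in UT and 13 in IMQ and Ifit3 had 9 and 16. Ifitm1 had 57 and 169 UMIs, of which 67 were in 1 IMQ barcode of 48937 UMIs with 23 fibroblast-marker UMIs, and without the leading barcodes its ratio was 0.37 (-0.13 to 0.88). Of 31 members with 10 UMIs, 5 were at least 2-fold higher (Ifit1, Igtp, Iigp1, Irgm1 and Gbp3), beside 1.91% of genes. Another 6 were lower (Ifitm2, Usp18, Xaf1, Ifi27, Psmb8 and Psmb9), beside 47.9%. Relative to the median gene of all deposited barcodes, 15 members were higher beside 9.87% and 0 were lower beside 9.63%. The type I and interferon-gamma-type sums had ratios of -0.87 (-0.93 to -0.81) and -0.50 (-0.67 to -0.32), and both were above 0 under TMM, at 0.17 and 0.54.

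The upstream parts of the pathway were measured from a list of other genes. No UMI of 10 interferon genes was found in either library in barcodes with at most 5% mitochondrial UMIs, which at this depth leaves room for up to 3.34 CPM of each gene in UT and 8.00 CPM in IMQ. Of 13 receptor and signalling genes, 11 reached 10 UMIs, and Ifngr1 and Socs3 were the 2 that were at least 2-fold higher in IMQ, beside 3.73% of all genes. Ifngr1, the ligand-binding chain of the interferon-gamma receptor, had 69 UMIs in UT (62.5 CPM) and 74 in IMQ (161 CPM), for a log2 ratio of 1.36 (0.87 to 1.86), with at most 5 UMIs in any barcode. Its partner Ifngr2 had 44 and 12 UMIs (39.8 and 26.0 CPM) and a ratio of -0.61 that was within counting error. The type I receptor chains were lower in CPM, Ifnar2 with 162 and 41 UMIs (-0.72, -1.25 to -0.22) and Ifnar1 with 18 and 2, whose interval reached 0.15. Ifnar1 was at least 2-fold lower, as were 32% of all genes. Jak1, the kinase that both receptors use, had 162 and 36 UMIs (-0.91, -1.47 to -0.38). The intervals of Ifnar2 and Jak1 include the ratio of the median gene, -0.61, so neither was set apart from that gene. Socs3, a feedback inhibitor, had 56 and 90 UMIs (1.95, 1.45 to 2.45), but 73 of the 90 were in the 5 IMQ barcodes over 5000 UMIs. Of 15 sensors and relays, 7 reached 10 UMIs, none was 2-fold higher, and Ddx58, Tbk1 and Irf8 were lower, beside 32% of all genes, with intervals that covered 0 for Tbk1 and Irf8. Tlr7, the receptor of imiquimod, had no UMI in either library.

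Of 46 further interferon-stimulated genes, 45 were in the files (Mx2 was not used here), and 24 reached 10 UMIs in this set, 3 were at least 2-fold higher and 6 lower, beside 3.73% and 32% of all genes. Ifi205, a member of the interferon-inducible p200 family, had 60 UMIs in 41 UT barcodes (54.3 CPM) and 92 UMIs in 67 IMQ barcodes (199.6 CPM), a log2 ratio of 1.88 (1.39 to 2.37). None of the 92 came from a barcode over 5000 UMIs, and above 5% mitochondrial UMIs its ratio was 2.38 (1.09 to 4.04). Cxcl9, a chemokine induced mainly by interferon-gamma, had 2 UMIs in UT and 39 in IMQ (5.55, 3.60 to 8.64), but the 39 came from 4 barcodes and 21 from 1. Cxcl10 had 2 UMIs in UT and 9 in IMQ, all 9 in 1 barcode. The lower genes included Psme1 and Psme2, subunits of the proteasome activator, with 152 and 19 UMIs (-1.74, -2.51 to -1.05) and 197 and 21 UMIs (-1.97, -2.69 to -1.32). Tapbp, which loads class I molecules, had 200 and 38 UMIs (-1.13, -1.68 to -0.63). The class I genes themselves did not go with them, since B2m, H2-K1 and H2-D1 had ratios of -0.03 (-0.18 to 0.12), 0.08 (-0.12 to 0.28) and -0.06 (-0.19 to 0.07). Each of these intervals lies above the ratio of the median gene, -0.61.

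**Figure D5:**
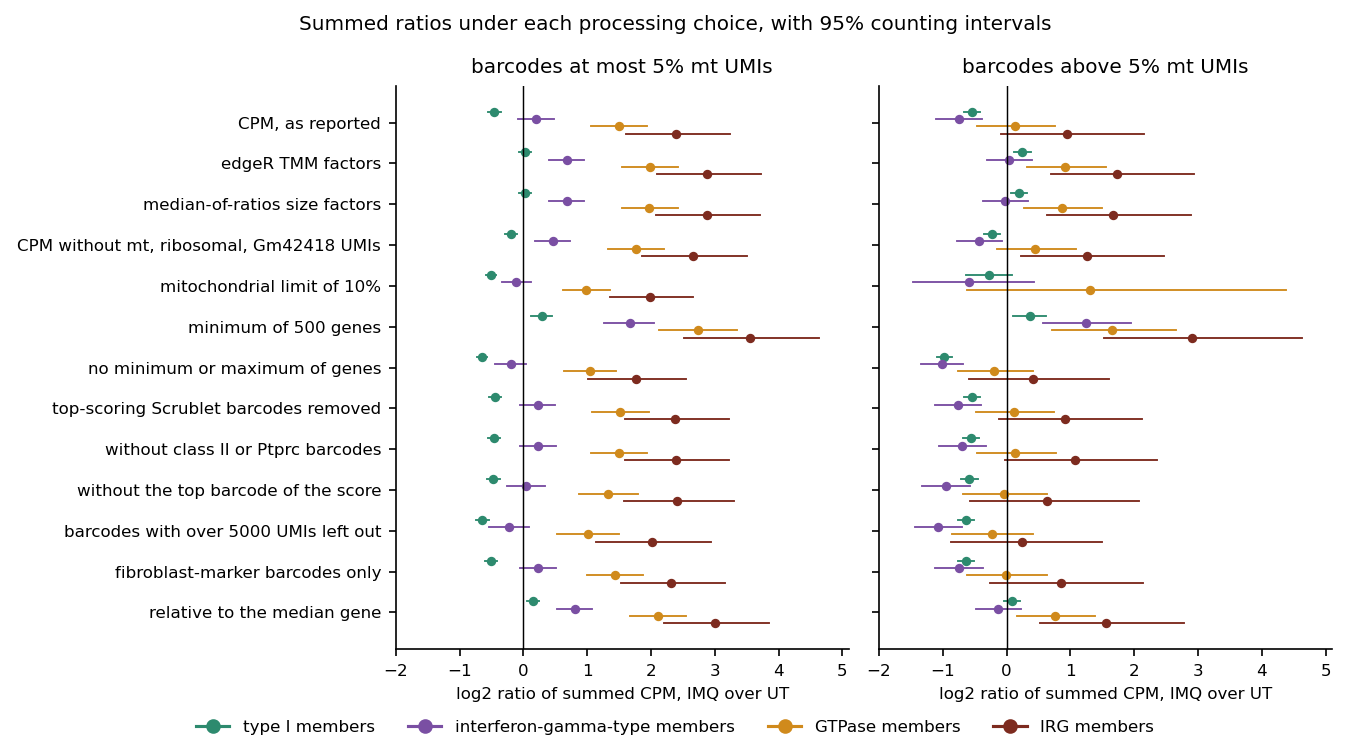
Log2 ratio of summed CPM, IMQ over UT, for type I members, interferon-gamma-type members, the 7 GTPases and the 4 immunity-related GTPases (IRG) under each processing choice, in barcodes with at most 5% (left) and above 5% (right) mitochondrial UMIs, with 95% exact counting intervals. On the left the IRG ratio lies between 1.76 and 3.55 under every choice, and the type I ratio crosses 0 with the scaling.

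Among the sums, the GTPase ratio in barcodes with at most 5% mitochondrial UMIs was above 0 under each of 13 alternatives, from 0.99 to 2.74, and that of the immunity-related GTPases under each of 12, from 1.76 to 3.55. The type I sum was below 0 under 9 of 13 alternatives and above 0 under TMM, median-of-ratios factors, relative to the median gene and over barcodes with at least 500 genes, of which IMQ had 37. In barcodes above 5% mitochondrial UMIs the sign of the GTPase ratio was not stable. There it was above 0 under 9 of 14 alternatives, from -0.23 to 1.65.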

How the data were processed

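The authors deposited, for each library, a matrix of raw UMI counts per gene and barcode written by Cell Ranger, version 3.0.0 for UT and 3.1.0 for IMQ per the file headers, with no normalisation. The submitters' processing notes name CASAVA and the build mm10; the annotation release and the use of strand are not given in the sources used here. Of the 31053 gene identifiers, 31011 were found in GENCODE M21, from which gene positions were taken. After filtering, the study had more IMQ cells than there are barcodes in the IMQ matrix used here, which may therefore be another version of it. The study's filtered UT cells also outnumbered the 1045 UT barcodes that the same limits left here. Promoters on chromosome 18 were left out of the motif search.

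Barcodes were filtered by the limits of the study (200 to 5000 genes, at most 5% mitochondrial UMIs), which did not reproduce its cell numbers. Those above 5% and all deposited barcodes were analysed beside them. Doublets were not removed in the main values. Scrublet (scanpy 1.11.5) was tried as an alternative, removing the top-scoring barcodes at 0.8% per 1000, which was 9 in UT and 3 in IMQ; the study used another caller. UMIs were summed per library and scaled to CPM. Sums have exact Poisson intervals, ratios exact conditional binomial intervals and shares Clopper-Pearson intervals (95%, scipy 1.17.1), all for counting error only. Called means a log2 ratio of at least 1 with 1 CPM added, among genes with at least 10 UMIs over both libraries. A fold against 0 UMIs is a bound at 3 UMIs per library. TMM factors came from edgeR 4.0.16 under R 4.3.3. The ratio step and its intervals were tested on simulated data, while the call step was not.

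The members, lists and classes were chosen with earlier results of these data known. Every member was accounted for, and other genes were named only from fixed lists; the grouping by role, the limit of 5000 UMIs and the fibroblast-marker limit were set after counts had been seen. Alternatives covered scaling, mitochondrial and gene limits, doublets, class II barcodes, leading barcodes, the added CPM and the UMI minimum. The values of 1 gene of the signalling list are not reported here.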

Additional observations from a re-analysis of the deposited data

How the results depend on the processing

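The log2 ratios below give IMQ over UT for all, type I, interferon-gamma-type and GTPase members in that order unless fewer are named, first at most 5% mitochondrial UMIs, then above 5%, then over all deposited barcodes. Counts are of members at least 2-fold higher or lower. In CPM as reported, 3.73%, 7.2% and 1.91% of all genes were higher in these sets, and 32%, 31.4% and 47.9% were lower. Shares of all genes under each other choice are not given here. The counts below therefore show only how the numbers of members moved, and are not results about the members. Other scalings moved every sum up. With TMM factors the ratios were 0.10, 0.030, 0.68 and 1.98, then 0.22, 0.25, 0.039 and 0.92, then 0.20, 0.17, 0.54 and 1.66. With median-of-ratios factors they were 0.088, 0.023, 0.68 and 1.98, then 0.16, 0.19, -0.020 and 0.86, then 0.17, 0.13, 0.51 and 1.63. Relative to the median gene they were 0.22, 0.15, 0.81 and 2.11, then 0.055, 0.079, -0.13 and 0.75, then 0.13, 0.089, 0.46 and 1.58. Under TMM and median-of-ratios factors alike, 1 member was lower at most 5%, 1 above 5% and 0 over all deposited barcodes, where 13 were higher. Relative to the median gene these counts were 1, 1, 0 and 15. CPM computed after removal of ribosomal protein, mitochondrial, AY036118 and Gm42418 UMIs gave -0.13 and -0.19 for all and type I members at most 5%, -0.25 and -0.22 above 5%, and -0.29, -0.33, 0.041 and 1.16 over all deposited barcodes, with 3, 3 and 2 members lower in the 3 sets and 8 higher in the last.

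Barcode limits moved the sums up or down. A minimum of 500 genes, which left 37 IMQ barcodes at most 5% and 30 above, gave 0.46, 0.29, 1.67 and 2.74, then 0.48, 0.36, 1.25 and 1.65, with 2 and 0 members lower. Under it the ratio of Psmb8 turned to 0.44 at most 5% and 0.32 above 5%, and above 5% Irf1 turned to 0.49, Xaf1 to 0.32, Zbp1 to 0.32 and the antigen-processing sum to 0.98. A mitochondrial limit of 10% gave -0.11 for interferon-gamma-type members and 0.99 for GTPases below it, and -0.32, -0.28 and 1.30 for all, type I and GTPase members above it, where Zbp1 turned to 3.81, and 3 and 1 members were lower. With no limit on genes the values were -0.60, -0.64, -0.20 and 1.04 at most 5%, and -0.99 and -0.98 for all and type I members above 5%, where 8 members were lower. Leaving out barcodes over 5000 UMIs gave -0.60, -0.64, -0.22 and 1.01, then -0.68 for all members above 5%, then -1.11, -1.15, -0.81 and 0.19. It left 4 members higher at most 5%, where Ifitm1 turned to -0.047, and 3 higher and 11 lower over all deposited barcodes. Leaving out the leading barcode of each library gave -0.95 and -0.998 for all and type I members over all deposited barcodes. Without Ifitm1, Ifitm2 and Ifitm3, all members were at -0.20 at most 5% and -0.64 over all deposited barcodes, and type I members at -0.20 above 5% and -0.75 over all deposited barcodes. Adding 5 CPM left 5, 2 and 2 members higher in the 3 sets and 3 lower above 5%. A minimum of 20 UMIs left 4 and 1 higher at most 5% and above 5%, and 2 lower above 5%, where minimums of 5 and 1 UMIs gave 8 and 10 higher. The cause of these changes was not tested.

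Of the member ratios recomputed under the alternatives, 922 stayed within the counting interval of the reported ratio, 126 lay outside it, and the 7 that were past 2-fold and turned are given above. Values relative to the median gene, without barcodes over 5000 UMIs, with at least 3 fibroblast-marker UMIs and without Gbp2 were chosen after seeing the data. No paired analysis was possible because each condition had 1 library. For the same reason no library could be left out, and differences between mice could not be measured. At these depths a member under 10 UMIs over both libraries could not be compared.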
